A study of Mus musculus with 8 samples.

Results

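RNA of 10 imprinted genes was compared in mouse embryonic stem cells (ESCs) depleted of ZZZ3 or of YEATS2, proteins of the histone-acetylating ATAC (Ada-two-A-containing) coactivator. The genes H19, Igf2, Meg3, Rian, Mirg, Peg3, Peg10, Mest, Impact and Grb10 were taken by name, as a mark of differences of line or culture. The rule uses no measured value, though it was set with earlier results of these data known. They are 10 of 55401 genes in the count files. All of them were found, and 9 passed the filter on low counts, the exception being Igf2.

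An imprinted gene is transcribed mainly from the copy inherited from 1 parent. The choice is kept by DNA methylation that is laid down in the egg or sperm at imprinting control regions and is copied at each cell division. Because ESC lines can lose or gain this methylation in culture, the RNA of imprinted genes is often used to compare lines and cultures. RNA counts as deposited do not separate the copies of the parents, so a level here is the sum of both.

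The 2 control libraries are labelled only as control ESCs, and the labels give neither their line nor their treatment. The 3 Zzz3 auxin and 3 Yeats2 auxin libraries came from ESC lines in which ZZZ3 or YEATS2 carried an auxin-inducible degron (AID), a tag by which auxin triggers breakdown of the protein, and auxin was present at 500 µM for 24 h. The study's methods state that AID cells carried the Tir1 factor under G418 selection and that ESCs were grown on gelatin in serum, LIF and 2 kinase inhibitors. In the study's supplementary data the ATAC comparison is one of DMSO with auxin in tagged cells, while its equations call the reference wild type, and neither names these control libraries. If the controls were tagged cells with DMSO, a comparison with control holds any effect of auxin besides the loss of the protein. If they were wild type it also holds any effect of the tag and of the line. Both auxin groups, from separate tagged lines, are set against the same 2 controls, so an effect of line may remain with DMSO controls too. The direct comparison of the auxin groups holds any difference between their lines. These effects cannot be told apart here. Nothing in the labels says whether libraries of a group came from separate cultures, so P values measure the spread between these libraries, which may be technical.

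Reads assigned to genes numbered 14315120 to 27884704 per library. Levels are CPM, the counts divided by the library's scaled depth and set to a common size, with edgeR's TMM factors (trimmed mean of M values) as the scaling. Zzz3 RNA was 186 and 182 CPM in control, 77.5, 96.9 and 112 CPM in Zzz3 auxin and 183 to 191 CPM in Yeats2 auxin. Yeats2 RNA ranged from 43.7 to 133 CPM over all libraries, with 77.3, 103 and 43.7 CPM in Yeats2 auxin. By the edgeR test used below, Zzz3 RNA was lower in Zzz3 auxin than in control and passed the threshold (log2 fold change -0.95, adjusted P = 0.0187). In Yeats2 auxin the value of Zzz3 RNA was 0.03 (adjusted P = 0.949) and that of Yeats2 RNA -0.32 (adjusted P = 0.605). The degron acts on protein, so these RNA levels are no check of depletion. The 8 ESC markers (Pou5f1, Nanog and others) summed to 4548 to 5341 CPM. Extraembryonic endoderm markers summed to 1.97 to 3.21 CPM. Of these Dab2 was at 0.658 to 1.38 CPM, Gata4 at 0.422 to 1.09 CPM and Gata6 at 0.220 to 0.669 CPM. Sox17 was at 0.201 CPM or less and Afp at 0.402 CPM or less. Trophoblast markers summed to 44.0 to 48.1 CPM, most of it Tfap2c at 27.6 to 32.7 CPM. Cdx2 was at 5.57 to 13.8 CPM and Eomes at 5.07 to 9.77 CPM, with Elf5 and Hand1 at 0.0791 CPM or less. Fibroblast markers summed to 7.06 to 12.4 CPM, most of it Pdgfrb at 5.67 to 10.8 CPM, with Col1a1 at 0.309 CPM or less. Of the Y-linked genes, Ddx3y was at 133 to 233 CPM, Uty at 54.1 to 92.9 CPM and Eif2s3y at 57.0 to 138 CPM, whereas Kdm5d was at 0.0493 to 0.514 CPM. Xist, which is expressed from an inactive X chromosome, was at 0.395 to 0.774 CPM. For 4 of these 5 genes all Yeats2 auxin libraries lay above both controls, beside 19.3% of all genes. Their median log2 fold change was 0.52, and 0 of 5 passed the test used below. In Zzz3 auxin 0 of 5 lay wholly on 1 side of the controls, beside 35.8% of all genes. Zzz3 auxin replicate 1 was the lowest library for Ddx3y and Uty, but not for Eif2s3y.

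Several members are hosts of small RNAs, and their mature sequences show what the long transcripts carry. In the GENCODE annotation 23 microRNA (miRNA) genes lie inside members on the same strand, and 22 of them were found in RefSeq with 41 mature miRNAs and 40 distinct seeds. The sequences below are those of RefSeq on GRCm38.p6, written 5′ to 3′ with the seed (bases 2 to 8) in capitals, and were chosen to show 1 miRNA for Mest, H19 and Rian and, for Mirg, a miRNA of its own seed beside the only pair with a shared seed.
miR-335-5p (Mest, chr6:30741314-30741336, plus strand): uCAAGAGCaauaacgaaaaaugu
miR-675-5p (H19, chr7:142577112-142577133, minus strand): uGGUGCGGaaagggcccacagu
miR-370-3p (Rian, chr12:109618305-109618326, plus strand): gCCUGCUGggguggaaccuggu
miR-541-5p (Mirg, chr12:109742422-109742446, plus strand): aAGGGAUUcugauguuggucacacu
miR-453 (Mirg, chr12:109735669-109735692, plus strand): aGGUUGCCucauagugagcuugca
miR-496a-5p (Mirg, chr12:109739132-109739152, plus strand): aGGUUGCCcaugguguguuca

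Promoters of 7 members, 250 bases before to 50 after an annotated start, were found in RefSeq. ZFP57, a zinc finger protein that keeps methylation at imprinting control regions, binds the letters TGCCGC when their CpG is methylated. On either strand these letters occurred in 11.6% of all 32851 promoters and in 2 or more copies in 1.53%. Of 3 Mest starts, 2 that nearly coincide held 2 copies, and 1 start each of Meg3, Grb10 and Igf2 held 1. The Mest promoter is shown because its gene varied most between libraries among the members above 5 CPM, with the motif in capitals (GCGGCA is TGCCGC read on the other strand). The Peg3 promoter, with its 13 CpG sites in capitals, is shown because 263 of its 300 bases are shared with the promoter of Usp29 on the other strand. At least 13 CpG sites were found in 37.9% of all promoters. A match of letters is a description and says nothing of binding.
Mest promoter (chr6:30737800-30738099, GRCm38.p6, plus strand): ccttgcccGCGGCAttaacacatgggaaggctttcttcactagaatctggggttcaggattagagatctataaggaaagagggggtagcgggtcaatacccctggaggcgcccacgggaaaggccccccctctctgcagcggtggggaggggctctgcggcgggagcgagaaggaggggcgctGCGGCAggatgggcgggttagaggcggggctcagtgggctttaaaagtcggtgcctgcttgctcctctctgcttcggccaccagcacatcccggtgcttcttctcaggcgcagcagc
Peg3 promoter (chr7:6730370-6730669, GRCm38.p6, minus strand): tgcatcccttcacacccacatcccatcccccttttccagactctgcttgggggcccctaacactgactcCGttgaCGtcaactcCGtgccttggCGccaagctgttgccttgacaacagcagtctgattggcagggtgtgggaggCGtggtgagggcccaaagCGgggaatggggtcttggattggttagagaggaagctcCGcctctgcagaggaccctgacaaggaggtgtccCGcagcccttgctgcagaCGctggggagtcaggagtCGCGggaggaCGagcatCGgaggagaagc

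As a rough correction for gene length that depends on the annotation, CPM was divided by the length of all annotated exons of a gene. On this scale Impact was the highest member with a mean of 79.3 CPM per kb over the 8 libraries, followed by Rian at 61.9, Mirg at 23.2, Meg3 at 14.0, Mest at 10.4, Peg3 at 8.24, Peg10 at 7.53 and Grb10 at 4.06 CPM per kb. H19 was at 0.293 and Igf2 at 0.00168 CPM per kb. The value of Igf2 may be too low, because 62.83% of its exon bases are shared with another gene on the same strand. Reads on such bases were left unassigned. Neighbours in this order overlapped in the values of their libraries except Rian and Mirg, and Grb10, H19 and Igf2 at the low end. The plot of CPM by library shows every value.

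**Figure D1:**
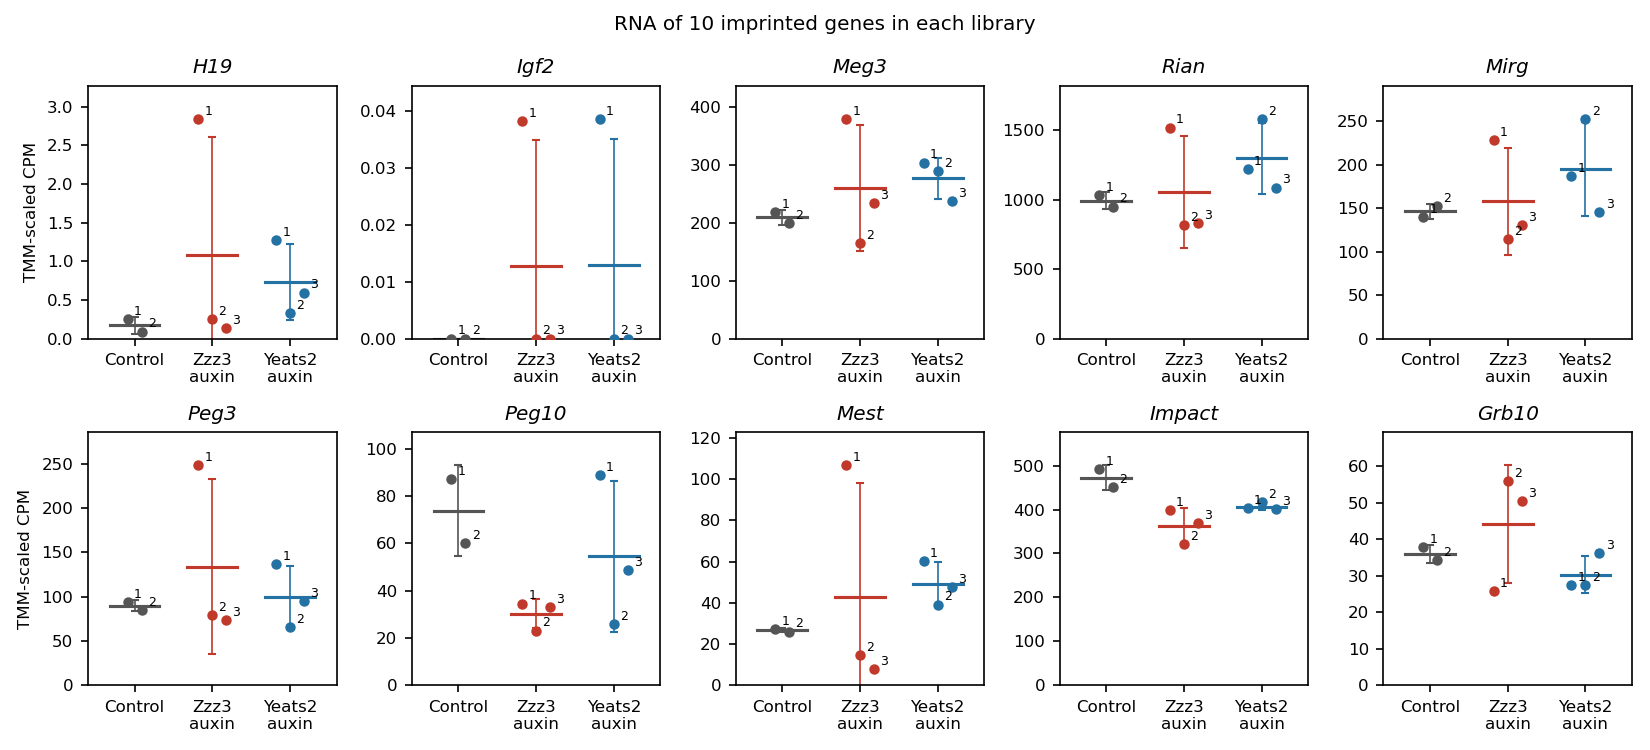
Level of each of the 10 members as TMM-scaled CPM (y axis, linear, starting at 0) in control, Zzz3 auxin and Yeats2 auxin. Points are libraries marked with their replicate number, horizontal lines are group means and error bars are 1 SD over 2 or 3 libraries, cut off at 0. The 3 Zzz3 auxin libraries lie far apart for Mest (7.70 to 107 CPM) and Peg3 (73.9 to 248 CPM), and below both controls for Peg10 and Impact.

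No member passed the test in any comparison. Of 9 members tested, 0 were called at an adjusted P below 0.05 in Zzz3 auxin against control, where 0.753% of 17532 genes were called, 0 in Yeats2 auxin against control, where 0.445% were called, and 0 in the direct comparison of Yeats2 auxin with Zzz3 auxin, where 0% were called. P values come from edgeR's quasi-likelihood test with Benjamini-Hochberg adjustment over all 17532 genes. At an unadjusted P below 0.05 there were 2 members (Peg10 and Impact, both lower) in Zzz3 auxin against control with a background of 21.7%, 0 in Yeats2 auxin against control with 14.6%, and 1 (Grb10, lower) in the direct comparison with 6.25%. DESeq2 called 0 members in each comparison as well. Both comparisons with control share the same 2 control libraries.

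Meg3, Rian and Mirg are noncoding RNAs expressed from the maternal copy of the Dlk1-Dio3 region of chromosome 12, where they follow each other on the plus strand. Meg3 (chr12:109541001-109571726) was at 218 and 200 CPM in control, 379, 165 and 234 CPM in Zzz3 auxin and 303, 289 and 237 CPM in Yeats2 auxin. All Yeats2 auxin libraries lay above both controls, while those of Zzz3 auxin lay on both sides. The log2 fold change (FC) was 0.41 ± 0.27 (SE, 3 against 2 libraries) in Yeats2 auxin (edgeR adjusted P = 0.522) and 0.31 ± 0.27 in Zzz3 auxin (adjusted P = 0.54).

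Rian, a host of small nucleolar RNAs (snoRNAs), was the most abundant member by CPM. Rian (chr12:109603940-109661716) was at 1034 and 949 CPM in control, 1518, 816 and 831 CPM in Zzz3 auxin and 1222, 1580 and 1086 CPM in Yeats2 auxin. Mirg (chr12:109729764-109749460), a host of 14 miRNA genes annotated on its strand, was at 140 and 152 CPM in control, 229, 115 and 130 CPM in Zzz3 auxin and 187, 253 and 146 CPM in Yeats2 auxin. In Yeats2 auxin all libraries of Rian, and 2 of 3 of Mirg, lay above both controls. The log2 FC in Yeats2 auxin was 0.39 ± 0.26 for Rian (edgeR adjusted P = 0.515) and 0.42 ± 0.29 for Mirg (adjusted P = 0.538). In Zzz3 auxin it was 0.09 ± 0.26 for Rian and 0.11 ± 0.29 for Mirg (adjusted P = 0.874 and 0.859). Zzz3 auxin replicate 1 lay above both controls, and replicates 2 and 3 below both, for Rian and Mirg alike. Without replicate 1 the log2 FC of all 3 RNAs was below 0 in Zzz3 auxin, at -0.050 for Meg3, -0.25 for Rian and -0.24 for Mirg.

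Rian and Mirg had the most alike patterns among the members, with Pearson's r = 0.97 on log2(CPM + 1) over the 8 libraries, while Meg3 had r = 0.85 with each. These are descriptions over libraries that share their depth, handling and group. Of the paternally expressed genes of the same region, Dlk1 was at 0.0366 to 0.197 CPM and Rtl1 at 0 to 0.155 CPM, and Dio3 was at 4.15 to 8.14 CPM. A count of 0 allows up to 3 counts, which is 0.109 to 0.201 CPM per library, a limit that covers counting error only.

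The genes of small RNAs inside these hosts held few counts. Annotated small RNAs in Rian (13 snoRNAs and 4 miRNAs) held 21 to 51 counts together per library, and the 14 miRNA genes in Mirg held 74 to 240. Mir453, whose mature seed is printed above, had 39 and 47 counts in control, 22, 24 and 19 counts in Zzz3 auxin and 62, 55 and 35 counts in Yeats2 auxin. Mir541 had 22 and 17 counts in control, 37, 29 and 8 counts in Zzz3 auxin and 34, 48 and 21 counts in Yeats2 auxin. Reads of the unspliced host can be counted in these genes, and mature miRNA was not measured. Union counting leaves reads on shared exon bases unassigned, which are 3.42% of the exon bases of Rian and 5.03% of those of Mirg.

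H19 and Igf2 lie beside each other on chromosome 7 and share an imprinting control region and enhancers. H19 is a maternally expressed noncoding RNA and Igf2 a paternally expressed growth factor. H19 (chr7:142575529-142578143, minus strand) was near the detection limit, with 5 and 2 counts in control, 74, 7 and 2 counts in Zzz3 auxin and 33, 9 and 15 counts in Yeats2 auxin. This was 0.247 and 0.0907 CPM in control, 2.84, 0.256 and 0.134 CPM in Zzz3 auxin and 1.28, 0.326 and 0.594 CPM in Yeats2 auxin. The 3 Yeats2 auxin libraries lay above both controls, and 1 of 3 Zzz3 auxin libraries held 74 of the group's 83 counts. H19 passed the filter on low counts only through auxin libraries, so its higher level there is partly set by the filter. The log2 FC was 2.10 ± 1.35 in Yeats2 auxin (edgeR adjusted P = 0.502) and 2.74 ± 1.31 in Zzz3 auxin (adjusted P = 0.257). Leaving out 1 library at a time moved the Zzz3 auxin value between 0.34 (Zzz3 auxin replicate 1 left out) and 3.57 (Control replicate 1 left out), and the Yeats2 auxin value between 1.43 (Yeats2 auxin replicate 1 left out) and 2.94 (Control replicate 1 left out).

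Igf2 (chr7:142650766-142666816, minus strand) had 0 counts in 6 libraries and 1 count in Zzz3 auxin replicate 1 and Yeats2 auxin replicate 1, so that no fold or test can be given. In the annotation 62.83% of its exon bases are shared on the same strand with Gm49394, a protein-coding gene model that also had 0 counts in each library. Union counting leaves reads on shared bases unassigned, so the count of Igf2 covers the remaining bases only. Its signalling partners were present: the receptor Igf1r at 15.9 to 28.7 CPM, the insulin receptor Insr at 18.6 to 23.3 CPM, and the mRNA-binding Igf2bp1 at 863 to 1037 CPM. Of 12 IGF and insulin signalling genes tested, 0 were called in each comparison, where 0.753%, 0.445% and 0% of all genes were. The median log2 FC of the 12 was 0.17 in Zzz3 auxin and 0.00046 in Yeats2 auxin, beside 0.01 and -0.01 over all genes.

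Peg3, a paternally expressed zinc finger protein, starts 0.147 kb from the start of Usp29, a paternally expressed gene on the other strand. Peg3 (chr7:6703892-6730431, minus strand) was at 94.3 and 85.1 CPM in control, 248, 79.5 and 73.9 CPM in Zzz3 auxin and 137, 65.4 and 95.2 CPM in Yeats2 auxin. Replicate 1 was the highest library in both auxin groups, and the libraries of each auxin group lay on both sides of the controls. The log2 FC was 0.58 ± 0.52 in Zzz3 auxin (edgeR adjusted P = 0.554) and 0.14 ± 0.51 in Yeats2 auxin (adjusted P = 0.923). Leaving out replicate 1 of the auxin group concerned turned both, to -0.21 in Zzz3 auxin and -0.16 in Yeats2 auxin.

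Usp29 was at 3.75 and 2.63 CPM in control, 11.1, 4.43 and 2.68 CPM in Zzz3 auxin and 4.99, 3.76 and 3.52 CPM in Yeats2 auxin, so that replicate 1 was again the highest of each auxin group. Across the 8 libraries Peg3 and Usp29 had r = 0.89 on log2(CPM + 1) (exact permutation P = 0.0271, adjusted over 2 pairs 0.0271) and Spearman's rho = 0.48 (exact permutation P = 0.243, adjusted 0.243). Without Zzz3 auxin replicate 1 and Yeats2 auxin replicate 1, the 2 libraries farthest from the median of Peg3, r was 0.016, so the relation rests on these libraries.

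Peg10, a paternally expressed gene derived from a retrotransposon, starts 0.099 kb from Sgce, which encodes epsilon-sarcoglycan and is also paternally expressed. Peg10 (chr6:4747306-4760517, plus strand) was at 87.4 and 60.1 CPM in control, 34.5, 23.1 and 33.1 CPM in Zzz3 auxin and 89.0, 25.7 and 48.7 CPM in Yeats2 auxin. All Zzz3 auxin libraries lay below both controls, and those of Yeats2 auxin spanned them. The log2 FC was -1.29 ± 0.43 in Zzz3 auxin (95% confidence interval -2.27 to -0.31, edgeR adjusted P = 0.142) and -0.44 ± 0.43 in Yeats2 auxin (adjusted P = 0.679). Between both auxin groups the log2 FC was 0.85 ± 0.39 (Yeats2 auxin over Zzz3 auxin, adjusted P = 0.779), and their libraries overlapped. The Yeats2 auxin value was -0.98 on leaving out Yeats2 auxin replicate 1 and -0.098 on leaving out replicate 2, and the direct value was 0.30 and 1.19.

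Sgce was at 4.64 and 4.35 CPM in control, 1.38, 1.76 and 2.28 CPM in Zzz3 auxin and 3.95, 2.68 and 2.57 CPM in Yeats2 auxin. All 6 auxin libraries lay below both controls, where 18.9% of all genes were wholly lower in Zzz3 auxin and 21% in Yeats2 auxin. The log2 FC of Sgce was -1.34 ± 0.28 in Zzz3 auxin (edgeR adjusted P = 0.0505) and -0.55 ± 0.27 in Yeats2 auxin (adjusted P = 0.362). The Zzz3 auxin value was past the threshold by DESeq2 (adjusted P = 0.00305), without a filter (0.00062), and on leaving out Zzz3 auxin replicate 2 (0.048) or 3 (0.0308), and short of it in the other alternatives, which reached 0.497. Peg10 and Sgce had r = 0.82 over the 8 libraries (exact permutation P = 0.0201, adjusted 0.0271) and rho = 0.69 (exact permutation P = 0.0694, adjusted 0.139), and r was 0.65 without Control replicate 1 and Yeats2 auxin replicate 1. The permutation shuffled libraries across groups, and both genes lay below both controls in all Zzz3 auxin libraries. A group difference shared by both genes can thus give a small P without any pairing within groups. Their further neighbours within the region were Ppp1r9a, 156 kb from the start of Peg10, at -0.64 ± 0.17 (log2 FC, Zzz3 auxin, adjusted P = 0.0813), and Casd1. Casd1 had means of 21.3 CPM in control, 19.2 CPM in Zzz3 auxin and 18.8 CPM in Yeats2 auxin.

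**Figure D2:**
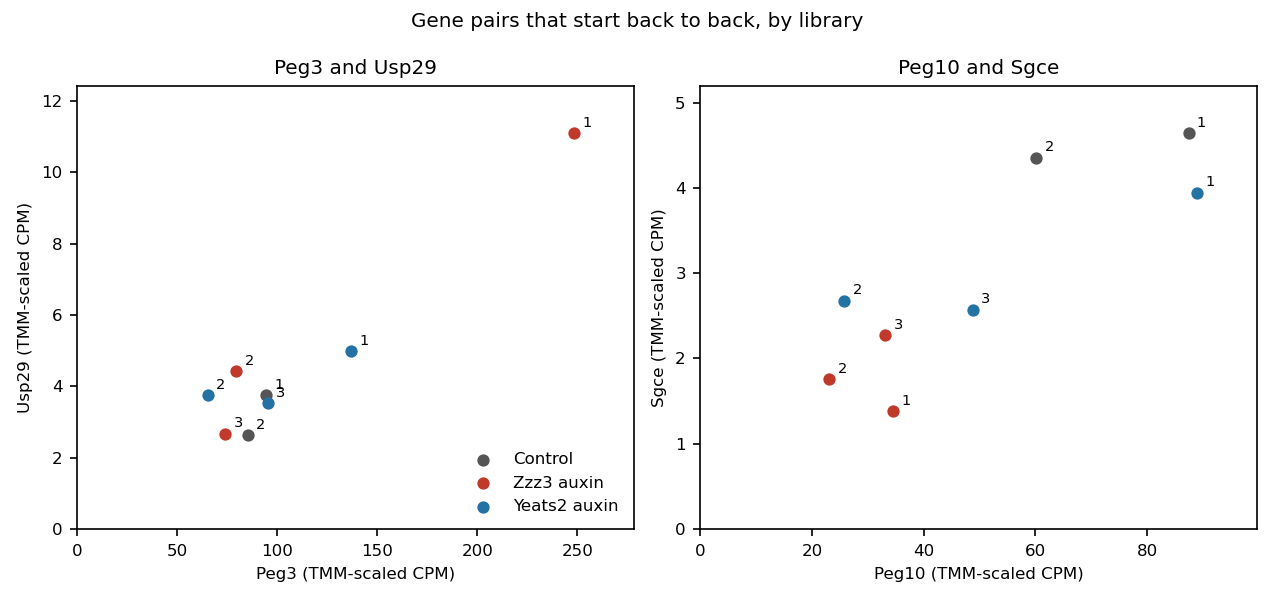
Levels in TMM-scaled CPM of Peg3 (x) against Usp29 (y) and of Peg10 (x) against Sgce (y), 1 point per library, coloured by group and marked with the replicate number. Zzz3 auxin replicate 1 stands alone at 248 CPM of Peg3 and 11.1 CPM of Usp29, and the 3 Zzz3 auxin libraries sit at the low end of both Peg10 and Sgce.

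Mest, a paternally expressed gene of the alpha/beta hydrolase family that hosts miR-335, had the widest spread of the members above 5 CPM. Mest (chr6:30723547-30748465, plus strand) was at 27.4 and 25.9 CPM in control, 107, 14.6 and 7.70 CPM in Zzz3 auxin and 60.4, 39.1 and 47.7 CPM in Yeats2 auxin. In Zzz3 auxin replicate 1 lay above both controls and replicates 2 and 3 below both, a 13.9-fold range within 1 group, whereas all Yeats2 auxin libraries lay above both controls. The log2 FC was 0.88 ± 1.05 in Yeats2 auxin (edgeR adjusted P = 0.742) and 0.70 ± 1.04 in Zzz3 auxin (adjusted P = 0.744). All groups share 1 estimate of the spread in this fit. With only Yeats2 auxin and control in the fit, the log2 FC of Mest was 0.89 ± 0.17 and passed the threshold (edgeR adjusted P = 0.0235, in a range of 0.0235 to 0.974 over the alternatives). More of all genes were called in that fit than in the main fit, which called 0.445% of 17532. Without Zzz3 auxin replicate 1 the value in Zzz3 auxin turned to -1.21 ± 0.28 (adjusted P = 0.109).

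On the opposite strand, Copg2 overlaps 23.12% of the exon bases of Mest. Copg2 was at 70.6 to 91.1 CPM, with no call in any comparison, and its r with Mest was 0.050. Reads on the shared bases are assigned or left unassigned depending on the strand option, which is not stated. The hosted Mir335 had 0 to 7 counts per library.

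Impact, a paternally expressed inhibitor of the kinase GCN2, was the steadiest member, with a 1.53-fold range over all libraries. Impact (on chromosome 18) was at 492 and 452 CPM in control, 399, 321 and 370 CPM in Zzz3 auxin and 403, 417 and 401 CPM in Yeats2 auxin. All 6 auxin libraries lay below both controls, where 18.9% of all genes were wholly lower in Zzz3 auxin and 21% in Yeats2 auxin. The log2 FC of Impact was -0.38 ± 0.12 in Zzz3 auxin (95% confidence interval -0.64 to -0.12, edgeR adjusted P = 0.113) and -0.21 ± 0.12 in Yeats2 auxin (adjusted P = 0.424). With each library corrected for its trend on GC content and exon length, the Zzz3 auxin value was -0.23 (adjusted P = 0.339). In the GCN2 branch, the kinase gene Eif2ak4, its activator Gcn1 and the translation-controlled factor Atf4 gave 0 calls of 3 in each comparison. Over all genes 0.753%, 0.445% and 0% were called. The median log2 FCs of these 3 genes were 0.12, 0.13 and -0.07 in the order of the comparisons. Gcn1 was at 91.3 and 142 CPM in control, 179, 138 and 199 CPM in Zzz3 auxin and 160, 163 and 145 CPM in Yeats2 auxin.

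Grb10 encodes an adaptor that restrains insulin and IGF receptor signalling and is maternally expressed in most tissues. Grb10 (chr11:11930508-12038683, minus strand) was at 37.7 and 34.2 CPM in control, 25.8, 56.0 and 50.5 CPM in Zzz3 auxin and 27.3, 27.5 and 36.1 CPM in Yeats2 auxin. Zzz3 auxin replicate 1 was the lowest of the 8 libraries and replicate 2 the highest. The log2 FC was 0.29 ± 0.27 in Zzz3 auxin (edgeR adjusted P = 0.564), -0.25 ± 0.27 in Yeats2 auxin (adjusted P = 0.708) and -0.54 ± 0.24 in the direct comparison (adjusted P = 0.779). The Zzz3 auxin value was 0.58 without Zzz3 auxin replicate 1 and 0.085 without replicate 2, and the direct value was -0.82 and -0.33. Pearson's r of Grb10 with each of the other 8 tested members was negative over the 8 libraries, from -0.32 with Peg10 to -0.91 with Rian.

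**Figure D3:**
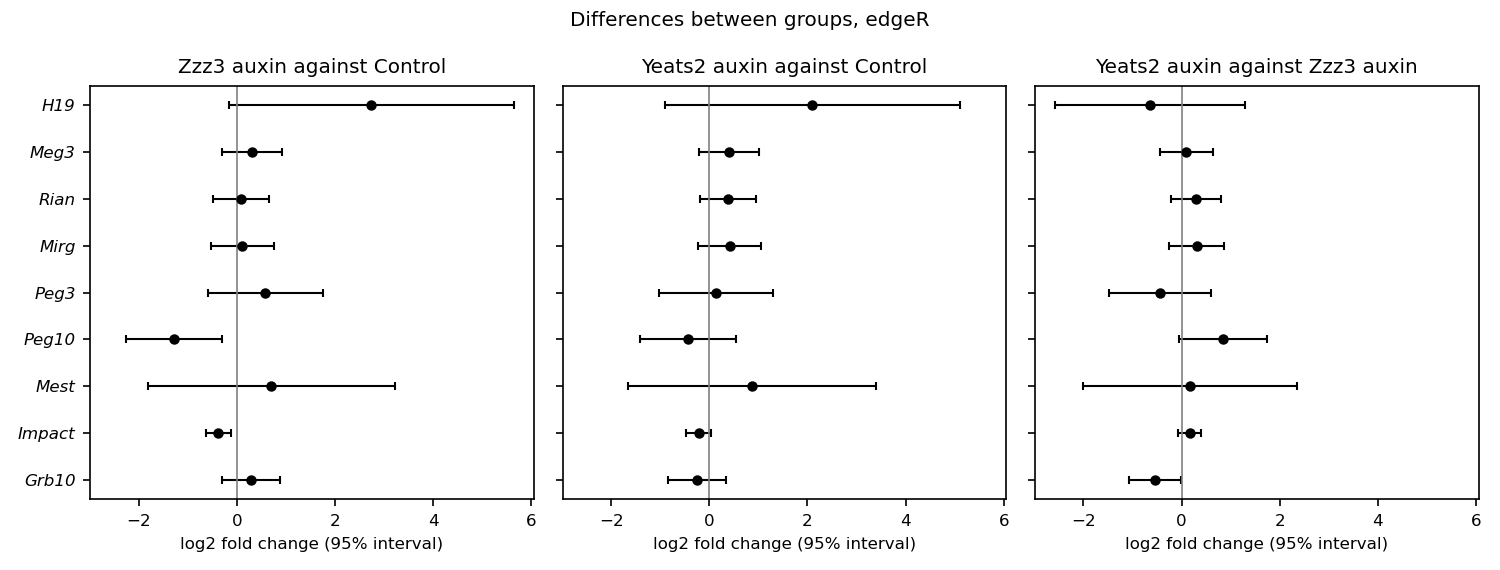
log2 FC of the 9 tested members (points) with 95% confidence intervals (bars) from edgeR for each auxin group over control and for Yeats2 auxin over Zzz3 auxin. Of the intervals against control only those of Peg10 and Impact in Zzz3 auxin lie on 1 side of 0, and in the direct comparison only that of Grb10 does, and none of these passed the adjusted threshold.

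Counted by overlap of libraries, 0 members were wholly higher and 2 (Peg10 and Impact) wholly lower in Zzz3 auxin than in control, where 16.8% and 18.9% of all genes were (35.8% in either direction). In Yeats2 auxin 4 members (H19, Meg3, Rian and Mest) were wholly higher and 1 (Impact) wholly lower, beside 19.3% and 21% of all genes (40.3% in either direction). H19, with 5 and 2 counts in control, passed the filter on low counts only through auxin libraries. Its place here and in the median below is thus partly set by the filter. In the direct comparison 1 member (Impact) was wholly higher in Yeats2 auxin and 0 wholly lower, beside 5.25% and 5.82% of all genes (11.1% in either direction). The median log2 FC of the 9 members was 0.29, 0.39 and 0.16 in the order of the comparisons, and 0.01, -0.01 and -0.01 over all genes. Meg3, Rian and Mirg, which lie in 1 region and had r of 0.85 to 0.97, count as separate members in these values.

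Several members differed widely between libraries of 1 group. Spread within a group was taken as the highest minus the lowest library on log2(CPM + 1), for the 10432 genes whose mean reached 5 CPM, of which 8 were members. The median over the 8 members was 0.12 in control, 1.04 in Zzz3 auxin and 0.58 in Yeats2 auxin, beside 0.18, 0.35 and 0.19 over all these genes. In Zzz3 auxin Mest had a range of 3.63, reached by 0.0192% of these genes, Peg3 one of 1.74, reached by 0.498%, and Meg3 one of 1.19, reached by 2.29%. In Yeats2 auxin Peg10 had a range of 1.75, reached by 0.0192%, Peg3 one of 1.05, reached by 0.23%, and Mirg one of 0.79, reached by 0.997%. Impact ranged by 0.31 in Zzz3 auxin and 0.056 in Yeats2 auxin, which 56.4% and 91.9% of these genes reached. The 2 controls differed little, by 0.08 to 0.15 for 7 members, but by 0.53 for Peg10, reached by 6.49% of genes. Because 2 libraries span less than 3, the control ranges are not comparable with the others.

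**Figure D4:**
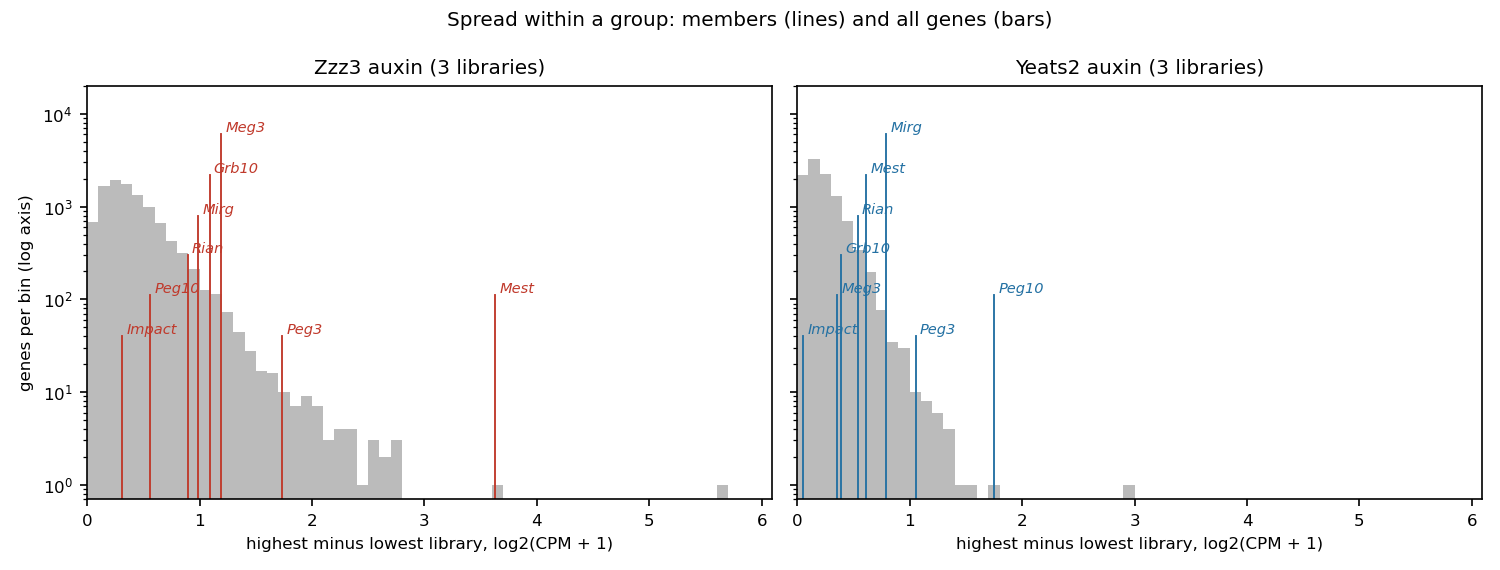
Histograms of the range between the highest and lowest of 3 libraries on log2(CPM + 1) (x axis) for 10432 genes whose mean reached 5 CPM (grey bars, number of genes on a log axis), in Zzz3 auxin (left) and Yeats2 auxin (right). Coloured lines mark the 8 members among them, and line height has no meaning. Mest at 3.63 in Zzz3 auxin and Peg10 at 1.75 in Yeats2 auxin lie in the far tail, and Impact lies among most genes.

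Zzz3 auxin replicate 1 was the highest of the 8 libraries for 4 of 9 members (H19, Meg3, Peg3 and Mest), and for 18% of all tested genes. Zzz3 auxin replicate 2 was the lowest for 5 of 9 members (Meg3, Rian, Mirg, Peg10 and Impact), and for 4.52% of all genes. Of these members Meg3, Rian and Mirg lie in 1 region and had alike patterns. Over all tested genes Control replicate 1 was the highest library for 23.8% and Zzz3 auxin replicate 3 for 21.5%, both more than Zzz3 auxin replicate 1. Chi-square per gene was 23.9 between Zzz3 auxin replicates 1 and 2, and 53.9 and 52.3 between these and replicate 3. Some marker values, listed next, also differed between Zzz3 auxin replicate 1 and the remaining libraries. The mesoderm markers summed to 24.5 CPM in it and to 12.2 to 15.9 CPM elsewhere, most of it from T at 14.0 CPM against 5.86 to 7.20 CPM. Mixl1, at 1.27 CPM, and Mesp1, at 0.230 CPM, were also highest in it, whereas Kdr, at 8.75 CPM, and Tbx6, at 0.230 CPM, lay within the range of the other libraries. Mesp1 was at 0 in 4 libraries, and no other mesoderm marker was at 0. Neural Pax6 was at 2.80 CPM in it and 0.289 to 1.00 CPM elsewhere, while neural Sox1 was at 0.767 CPM against 2.03 to 5.77 CPM, and the 5 neuroectoderm markers summed to 50.4 CPM in a range of 32.9 to 72.9 CPM. Their part in the levels of the members was not tested. In bulk RNA fewer expressing cells and less RNA per cell cannot be told apart.

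Genes whose pattern over the 8 libraries was most like a member were sought among 9760 to 9762 named genes whose mean reached 5 CPM and that do not overlap it. The closest were Fetub and Tnik for H19 (r = 0.966 each), Txndc5 for Meg3 (0.893), Exo1, after each other, for Rian (0.933) and Mirg (0.94), Cask for Peg3 (0.982), Yipf3 for Peg10 (0.935), Xlr3a for Mest (0.971), Itgb3bp for Impact (0.99) and Zfand2a for Grb10 (0.952). Kcnq1ot1, an imprinted noncoding RNA of chromosome 7, was second for Mest (0.951). With 8 libraries and this many genes, values of this size are descriptions of these libraries.

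Of 66 other imprinted genes, 49 were tested and 0 were called in each comparison, with 14, 7 and 7 at an unadjusted P below 0.05 in the order of the comparisons, where 21.7%, 14.6% and 6.25% of all genes were. Their median log2 FC was -0.03 in Zzz3 auxin and -0.03 in Yeats2 auxin. The most abundant, Kcnq1ot1, was at 685 and 566 CPM in control, 1057, 455 and 416 CPM in Zzz3 auxin and 874, 586 and 699 CPM in Yeats2 auxin, so that Zzz3 auxin replicate 1 was again high. In Zzz3 auxin the log2 FC of Cd81, a tetraspanin, was 0.49 ± 0.14 (edgeR adjusted P = 0.0907), that of Ube3a, a ubiquitin ligase, -0.45 ± 0.13 (0.0998) and that of Zdbf2 -0.55 ± 0.17 (0.109). Igf2r, the receptor that clears IGF2, was at 130 and 146 CPM in control, 215, 176 and 154 CPM in Zzz3 auxin and 161 to 169 CPM in Yeats2 auxin (log2 FC 0.40 ± 0.14, adjusted P = 0.147, and 0.27 ± 0.14, adjusted P = 0.397). Plagl1, a zinc finger factor, was at 72.4, 32.7 and 44.0 CPM in Zzz3 auxin and 136, 69.3 and 88.1 CPM in Yeats2 auxin, which differed by a log2 FC of 0.97 ± 0.30 in the direct comparison (adjusted P = 0.779). Cobl, Gnas, Nap1l4, Slc38a4, Gab1 and Copg2 had log2 FCs from -0.41 to 0.07 against control, none past the threshold. Among the 96 other tested genes whose starts lie within 500 kb of a member's, 0 were called in each comparison. For these and the other imprinted genes, the share called over all genes was 0.753%, 0.445% and 0%.

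**Figure D5:**
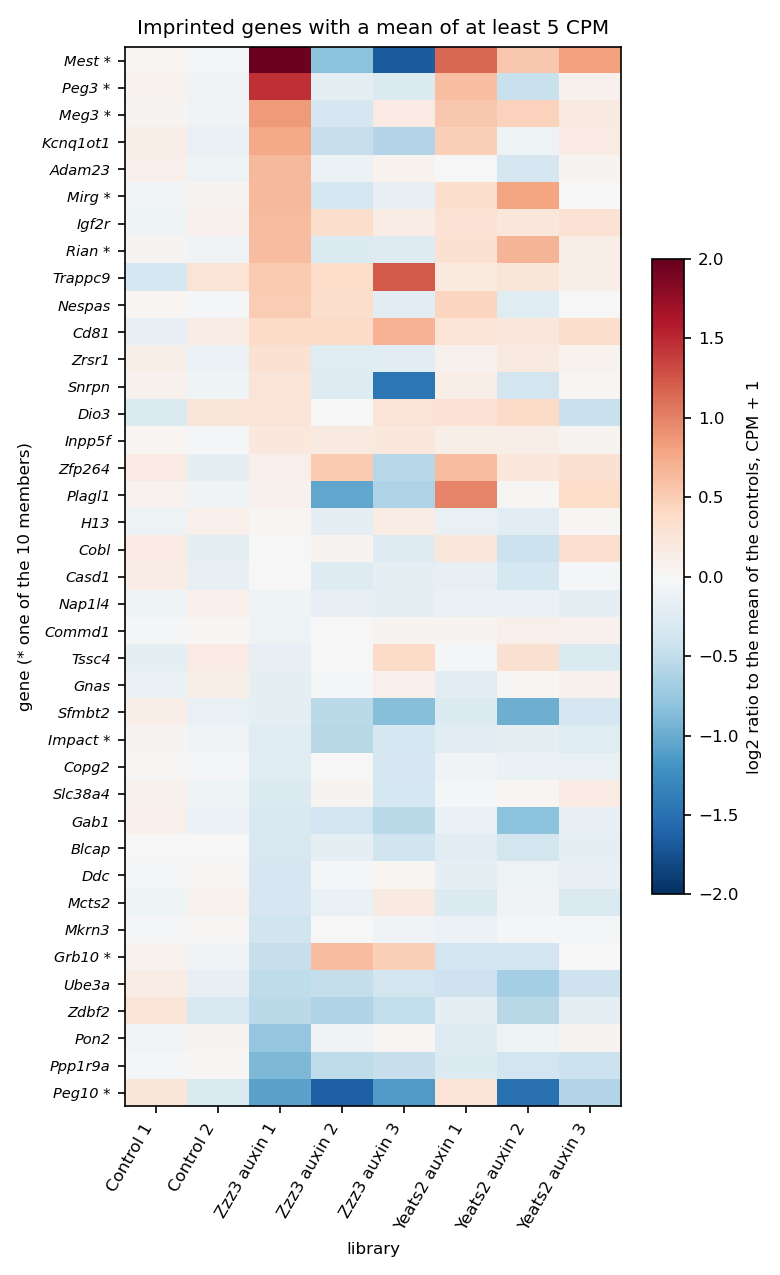
Log2 ratio of each library to the mean of the controls on CPM + 1 (colour, scale from -2 to 2) for the 39 imprinted genes whose mean reached 5 CPM (rows, members marked with *, ordered by Zzz3 auxin replicate 1) in 8 libraries (columns). Mest, Peg3, Meg3 and Kcnq1ot1 are at the top in Zzz3 auxin replicate 1 and Peg10 at the bottom, and the median over the 39 genes is -0.0075 in that library.

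The factors that keep imprints were expressed in every library, and 0 of 13 were called in each comparison, where 0.753%, 0.445% and 0% of all genes were. At an unadjusted edgeR P below 0.05 there were 5, 5 and 2 in the order of the comparisons, beside 21.7%, 14.6% and 6.25% of all genes. The median log2 FC of the 13 was 0.11 in Zzz3 auxin and 0.17 in Yeats2 auxin. Uhrf1, which brings the maintenance methyltransferase to newly copied DNA, was at 434 and 532 CPM in control, 712, 626 and 659 CPM in Zzz3 auxin and 734, 772 and 685 CPM in Yeats2 auxin (log2 FC 0.46 ± 0.13, edgeR adjusted P = 0.0882, and 0.60 ± 0.13, adjusted P = 0.0738). Trim28, the corepressor recruited by ZFP57, was at 1368 and 2045 CPM in control and 2261 to 2825 CPM in the auxin libraries (log2 FC 0.55 ± 0.17 and 0.48 ± 0.17, adjusted P = 0.109 and 0.223). Dnmt3b, a de novo methyltransferase, had a log2 FC of 0.55 ± 0.12 in Yeats2 auxin (edgeR adjusted P = 0.0739). Zfp57 itself was at 346 to 459 CPM (log2 FC -0.09 and -0.07). Dppa3, which protects maternal methylation in the early embryo, was at 17.4 CPM in Zzz3 auxin replicate 1 and 2.47 to 4.43 CPM in the other 7 libraries. Methylation of DNA was not measured in these files.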

How the data were processed

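Total RNA of 8 ESC libraries was analysed from the deposited files, 1 per library, which hold raw read counts per Ensembl gene. The extract protocol describes ribosomal RNA depletion with a stranded kit, whereas the molecule label says polyA RNA. In the study's methods the authors trimmed adaptors, dropped short reads and reads of ribosomal RNA, aligned what was left to mm10 with STAR 2.5.3a and made the counts with HTSeq 0.6.1p1 in union mode on unique alignments, leaving ambiguous reads unassigned. The strand option is not given in the sources used here. No normalization had been applied to the counts. Of all tallied reads 63.5% to 69.4% were unassigned (5 tallies per file, left out).

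GENCODE M21 (GRCm38, the assembly of mm10) gave symbols, positions and exon lengths for 55141 of 55401 genes. Sequences came from RefSeq tables. Counts were fitted in R 4.3.3 with edgeR 4.0.16 (filterByExpr, TMM, robust quasi-likelihood, a mean per group over all 8 libraries) on 17532 genes, two-sided, with Benjamini-Hochberg adjustment within each comparison and a call at 0.05. SE is the log2 FC divided by the square root of F. DESeq2 1.42.0, the tool of the study, was an alternative, beside DESeq2's size factors in edgeR, no filter on low counts, a filter at 1 CPM on the mean, only the compared groups, the replicate number as a block, a GC and length correction (lowess span 0.3) and leaving out each library. Correlations used log2(CPM + 1), with exact two-sided permutation for the 2 pairs of shared start, which shuffled libraries across all groups. Figures were drawn in Python 3.11.15 with matplotlib 3.10.9. The pipeline was tested on simulated data. Pairs of libraries of 1 group differed by more than sampling noise (chi-square per gene 3.82 to 53.9), so none was counted as a duplicate.

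The members, lists and tests were chosen with earlier results of these data known. All 10 members are named, of the other imprinted genes the 12 with the largest mean CPM, and the 2 most alike genes of each member (the first where both are not given). Usp29, Sgce, Ppp1r9a and Casd1 were named for their place beside a member, and Dlk1, Rtl1, Dio3, the genes of the other lists and single markers after their values were seen.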

Additional observations from a re-analysis of the deposited data

Results flagged for a closer look

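Osbpl5, an imprinted gene of chromosome 7 near the detection limit, was above the control mean in all 3 Zzz3 auxin libraries and below it in all 3 Yeats2 auxin libraries. It was at 0.691 and 0.953 CPM in control, 0.883, 0.916 and 1.87 CPM in Zzz3 auxin and 0.580, 0.651 and 0.554 CPM in Yeats2 auxin. Between the auxin groups the log2 FC (Yeats2 auxin over Zzz3 auxin) was -0.98 ± 0.37, and this difference did not pass edgeR's quasi-likelihood test (adjusted P = 0.779). Zzz3 auxin replicate 3 is the library with the highest value and the fewest reads.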

How the results depend on the processing

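Over 16 alternatives, 428 log2 FCs of members were recomputed. Of these 416 kept their direction and their side of the threshold, 11 turned and 1 (Mest in Yeats2 auxin, 0.89, adjusted P = 0.0235) passed the threshold when only the compared groups were fitted, which made the count of members called 1 there. That fit also called more of all genes (count in the next paragraph) than the main fit, which called 0.445% of 17532. In all other alternatives 0 members were called. All 11 that turned did so on leaving out a library. In Zzz3 auxin against control without Zzz3 auxin replicate 1, the values were -0.050 for Meg3, -0.25 for Rian, -0.24 for Mirg, -0.21 for Peg3 and -1.21 for Mest. In Yeats2 auxin against control without Yeats2 auxin replicate 1, Peg3 was at -0.16. In the direct comparison H19 was at 1.77 and Peg3 at 0.36 without Zzz3 auxin replicate 1, Meg3 at -0.15 and Mest at -0.24 without replicate 2, and Mest at -0.30 without replicate 3. On leaving out a library, values against control in Zzz3 auxin ranged from -0.050 to 0.56 for Meg3, -0.25 to 0.25 for Rian, -0.24 to 0.30 for Mirg, -0.21 to 0.88 for Peg3 and -1.21 to 1.20 for Mest, and in Yeats2 auxin from -0.16 to 0.37 for Peg3. In the direct comparison they ranged from -1.30 to 1.77 for H19, -0.15 to 0.47 for Meg3, -0.74 to 0.36 for Peg3 and -0.30 to 2.11 for Mest. For H19, Peg10 and Grb10, the ranges of values that did not turn were 1.43 to 2.94 for H19, -0.98 to -0.098 for Peg10 and -0.39 to -0.17 for Grb10 in Yeats2 auxin against control, 0.34 to 3.57, -1.53 to -0.997 and 0.085 to 0.58 in Zzz3 auxin, and 0.30 to 1.19 for Peg10 and -0.82 to -0.33 for Grb10 in the direct comparison. H19 was not tested with a mean of at least 1 CPM or, in Zzz3 auxin, with only the compared groups.

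Counts over all genes moved more. Zzz3 auxin against control gave 132 calls by edgeR, 1083 by DESeq2, 1542 without a filter, 42 with the replicate block and 0 with only the compared groups (2606 at an unadjusted P below 0.05), and 0 to 841 on leaving out a library. Yeats2 auxin against control gave 78, and 418, 553, 32 and 454 in the same order, 136 with the GC and length correction and 0 to 217 on leaving out a library. The direct comparison gave 0 (1095 unadjusted), 3 by DESeq2, 117 without a filter and 0 to 1 on leaving out a library. The cause was not tested. Against control, 0 calls were left without either control in Zzz3 auxin (1569 and 3909 at an unadjusted P below 0.05), and without Control replicate 1 or Yeats2 auxin replicate 3 in Yeats2 auxin (1129 and 1904).

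Deviations of same-numbered libraries from their group means had correlations of 0.0405, 0.059 and -0.111 between both auxin groups. The values were 0.186 and -0.529 between Zzz3 auxin and control and 0.172 and 0.36 between Yeats2 auxin and control, so signs differed. With 2 controls, each deviates from their mean as the mirror image of the other, so all values with control rest on 1 difference. Libraries did not all correlate best with their own number, so the numbers were not taken to pair samples, and the block changed no call of a member. With 2 controls, log2 FCs of members carry errors of 0.12 (Impact) to 1.35 (H19), and counts under 10 limit H19 and Igf2.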

Other observations

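Some other imprinted genes had 1 library far from the rest of its group, and these were chosen after their values were seen. Snrpn, a paternally expressed splicing factor gene, was at 41.6 and 36.8 CPM in control, 47.3, 32.7 and 13.7 CPM in Zzz3 auxin and 43.2, 30.1 and 40.2 CPM in Yeats2 auxin, with Zzz3 auxin replicate 3 the lowest. Trappc9 was at 9.82 and 15.7 CPM in control, 18.7, 16.8 and 31.3 CPM in Zzz3 auxin and 14.1 to 15.2 CPM in Yeats2 auxin, with the same library the highest. The noncoding RNA Peg13, which lies within Trappc9, was highest in Zzz3 auxin replicate 1, at 3.53 CPM against 0.36 to 1.90 CPM in the other 7 libraries.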
